A study of Homo sapiens with 24 samples.

Results

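The genes of fatty acid synthesis and elongation were followed in LNCaP cells, a human prostate cancer line that grows in response to androgen. The set was taken by function and held FASN, ACACA, ACLY, SCD, ELOVL5, ELOVL7, FADS1, FADS2, ACSL1 and ME1, which is 10 genes of the 23946 listed in any table. All 10 were listed and passed the filter on low values in every comparison. RNA was sequenced in 2 experiments. In the ligand experiment, cells received vehicle, 10 nM dihydrotestosterone (DHT, the active androgen) for 4 or 24 h, or 10 µM enzalutamide (an antiandrogen, also labelled MDV) for 4 or 24 h. Each condition was counted as 2 replicates. For vehicle the labels list 4 replicates and give no time, but the column names carry only replicate numbers 1 and 2. In the siRNA experiment, cells transfected with a non-targeting pool (siControl) or a pool against GATA2 (siGATA2), a transcription factor of the prostate epithelium, were given enzalutamide at 25 µM or vehicle over 24 h, with 3 replicates per condition. Per the labels, all cells were kept in phenol red-free medium with charcoal-stripped serum, which is depleted of steroids, for 3 days before treatment. The siRNA cells were treated 72 h after transfection, per the methods of the study. Every library came from this 1 cell line, the labels call the replicates biological, and silencing was transient and partial, so the p-values describe the spread between these cultures.

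Cells build fatty acids from citrate exported from mitochondria. ACLY cleaves the citrate to acetyl-CoA, ACACA carboxylates acetyl-CoA to malonyl-CoA, and FASN joins these units into palmitate with reducing power from NADPH, part of which ME1 supplies. SCD and the FADS enzymes then place double bonds, the ELOVL enzymes lengthen the chains, and ACSL1 activates free fatty acids to acyl-CoA for storage, membranes or oxidation. Androgens are known to raise lipid synthesis in prostate cancer cells, in large part through the SREBP transcription factors encoded by SREBF1 and SREBF2.

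RefSeq promoter sequences (build GRCh38.p14) matched 9 of the 10 genes in 17 windows, since ACACA, ACLY, FADS2 and ACSL1 have several annotated starts; the remaining gene is FASN. The 250 bases before the start were searched on both strands for CCAAT (the NF-Y box), GGGCGG (the SP1 GC box), CACGTG (an E-box that is its own reverse complement), TCACNCCAC (a sterol regulatory element), AGAACA (the core of an androgen response element) and AGATAA (which resembles the motif of GATA2). These letters occurred in 32%, 42.6%, 6.34%, 0.883%, 12.4% and 9.17%, respectively, of the 35116 promoters in the table. At least 1 window of 5 of the 9 genes held CCAAT and at least 1 window of 8 held GGGCGG, whereas CACGTG was found only at ELOVL5, TCACNCCAC and AGAACA only at ACSL1, and AGATAA in none of the 17 windows. A gene with several windows had more chances to hold a motif, and a match in letters is a description of the window, not a bound site.

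Windows of 5 genes are shown, among them ELOVL7, with the largest rise in DHT, and ME1, with a rise in enzalutamide. FADS1 and FADS2, with the largest falls in enzalutamide at 24 h, are not among them. SCD lies on chromosome 10 (chr10:100346983-100347232, plus strand), ACLY on chromosome 17 (chr17:41919023-41919272, minus strand), ELOVL5 on chromosome 6 (chr6:53348951-53349200, minus strand), ELOVL7 on chromosome 5 (chr5:60844270-60844519, minus strand) and ME1 on chromosome 6 (chr6:83431052-83431301, minus strand). Each is written 5′ to 3′ along the gene with the searched motifs in capitals, read on either strand (ATTGG is CCAAT and CCGCCC is GGGCGG on the other strand).
SCD: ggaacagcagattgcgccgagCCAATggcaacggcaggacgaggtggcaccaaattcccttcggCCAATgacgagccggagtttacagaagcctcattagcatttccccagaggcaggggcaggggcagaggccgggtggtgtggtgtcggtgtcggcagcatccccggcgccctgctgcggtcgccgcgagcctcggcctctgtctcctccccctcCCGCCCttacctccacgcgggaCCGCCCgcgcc
ACLY: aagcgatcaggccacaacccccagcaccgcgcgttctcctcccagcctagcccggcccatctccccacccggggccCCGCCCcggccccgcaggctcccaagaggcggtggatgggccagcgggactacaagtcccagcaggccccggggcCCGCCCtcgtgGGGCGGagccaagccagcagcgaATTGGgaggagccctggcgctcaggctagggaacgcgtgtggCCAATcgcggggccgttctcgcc
ELOVL5: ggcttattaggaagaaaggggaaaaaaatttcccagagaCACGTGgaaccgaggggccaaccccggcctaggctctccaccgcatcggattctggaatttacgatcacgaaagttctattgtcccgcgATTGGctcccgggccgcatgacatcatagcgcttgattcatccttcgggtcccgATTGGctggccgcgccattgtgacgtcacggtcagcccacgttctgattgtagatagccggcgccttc
ELOVL7: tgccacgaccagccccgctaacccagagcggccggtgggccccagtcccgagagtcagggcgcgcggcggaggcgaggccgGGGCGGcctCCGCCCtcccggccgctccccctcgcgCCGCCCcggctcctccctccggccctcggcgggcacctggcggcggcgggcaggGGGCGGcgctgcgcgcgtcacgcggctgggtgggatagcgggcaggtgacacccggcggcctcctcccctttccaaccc
ME1: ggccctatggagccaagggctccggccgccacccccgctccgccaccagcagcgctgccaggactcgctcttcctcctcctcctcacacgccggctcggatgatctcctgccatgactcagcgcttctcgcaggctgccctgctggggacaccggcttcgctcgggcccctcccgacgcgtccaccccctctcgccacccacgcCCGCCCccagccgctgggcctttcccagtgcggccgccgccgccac
SCD carried CCAAT 229 and 186 bases before its start, ACLY 65 and 23 bases before, and ELOVL5 122 and 68 bases before with the E-box at 211. ELOVL7 and ME1 had GC boxes only, 4 and 1 respectively. FADS1 and FADS2 lie beside each other on chromosome 11 on opposite strands, and their annotated starts are 800 or 599 bases apart, with each gene reading toward the start of the other. Whether the counting used strand is not given in the sources used here, so reads from that short overlap may have been assigned to either gene.

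As tested, ligand libraries held 38894876 to 59985287 estimated counts. The highest was vehicle replicate 1, a sum of 3 deposited columns of 18778840 to 21717301 counts. A member received from 652 counts (ELOVL7) to 133353 counts (FASN) in a library. The siRNA tables hold RPKM (reads scaled to transcript length and library size), and steps among low values put the depth of their libraries at 0.835 to 1.091 times that of siControl vehicle replicate 1. KLK3, which encodes prostate-specific antigen, followed the labels, with a log2 fold change of 3.04 in DHT at 24 h and -1.22 in enzalutamide at 24 h. GATA2 RNA was 83.8, 77.0 and 86.1 RPKM in siControl vehicle and 54.3, 53.4 and 46.6 RPKM in siGATA2 vehicle, and 128.5, 131.5 and 127.8 RPKM in siControl enzalutamide against 60.1, 64.7 and 61.5 RPKM in siGATA2 enzalutamide. The luminal keratin KRT8 was at 102.2 RPKM or more in all 12 siRNA libraries, and the summed basal markers KRT5, KRT14 and TP63 reached at most 0.113 RPKM. Stromal markers summed to 9.62 to 16.3 RPKM, nearly all COL1A1, endothelial markers to 0.371 to 1.3 RPKM, and immune markers to 3.54 to 12.2 RPKM, nearly all CD68, with CD3E at 0 throughout. COL1A1 and CD68 were higher in siGATA2 vehicle than in siControl vehicle by 0.54 and 1.60 on the log2 scale, and their part in the siRNA results was not tested. In bulk RNA, fewer cells of a type and less RNA per cell cannot be told apart.

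Levels between genes were compared on the RPKM scale, which corrects for length. In siControl vehicle the order was FADS2 at 180 ± 8.22 RPKM (SD, n = 3), FASN at 159 ± 7.39, ACLY at 128 ± 2.86, SCD at 120 ± 3.69, ELOVL5 at 76.7 ± 2.4, ACSL1 at 69.1 ± 1.62, FADS1 at 45.9 ± 0.465, ACACA at 44.7 ± 2.14, ME1 at 33.3 ± 0.962 and ELOVL7 at 12.8 ± 0.285. Only FADS1 and ACACA overlapped as neighbours in this order. ELOVL7 was thus the lowest member, and it was also the one with the largest response to DHT.

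The ligand experiment asked how an androgen and its antagonist act on the same cells over time. After 24 h of DHT, 9 of the 10 genes were higher than in vehicle and none was lower, against 26.9% of the 15555 genes tested that were higher and 23.2% that were lower (edgeR's quasi-likelihood test, Benjamini-Hochberg adjusted p under 0.05). No member was lower at an unadjusted p under 0.05 or with DESeq2 either. The median log2 fold change was 0.667 for the members and 0.001 for all genes tested. The split over all genes moved from 4182 higher and 3601 lower to 3314 higher and 4555 lower when libraries were scaled by their totals only. Markers of other cell types also moved in DHT at 24 h: CD68 stood at 1.47 and 1.40 CPM in vehicle and 2.84 and 2.80 CPM in DHT, VWF at 15.6 and 16.4 CPM and 21.4 and 20.6 CPM, COL1A1 at 23.6 and 24.2 CPM and 14.4 and 16.1 CPM, and KRT14 at 0.0165 and 0.0508 CPM and 0.329 and 0.408 CPM. All 4 passed in edgeR, with COL1A1 lower and the others higher, and their part in the members' results was not tested. After 24 h of enzalutamide, 6 members were lower and 1 was higher, against 17% and 16.4% of all genes, with a member median of -0.248. Both comparisons share the vehicle libraries, and in the direct comparison of DHT with enzalutamide at 24 h 9 members were higher in DHT and 1 was lower, against 31.3% and 33.6% of all genes.

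**Figure D1:**
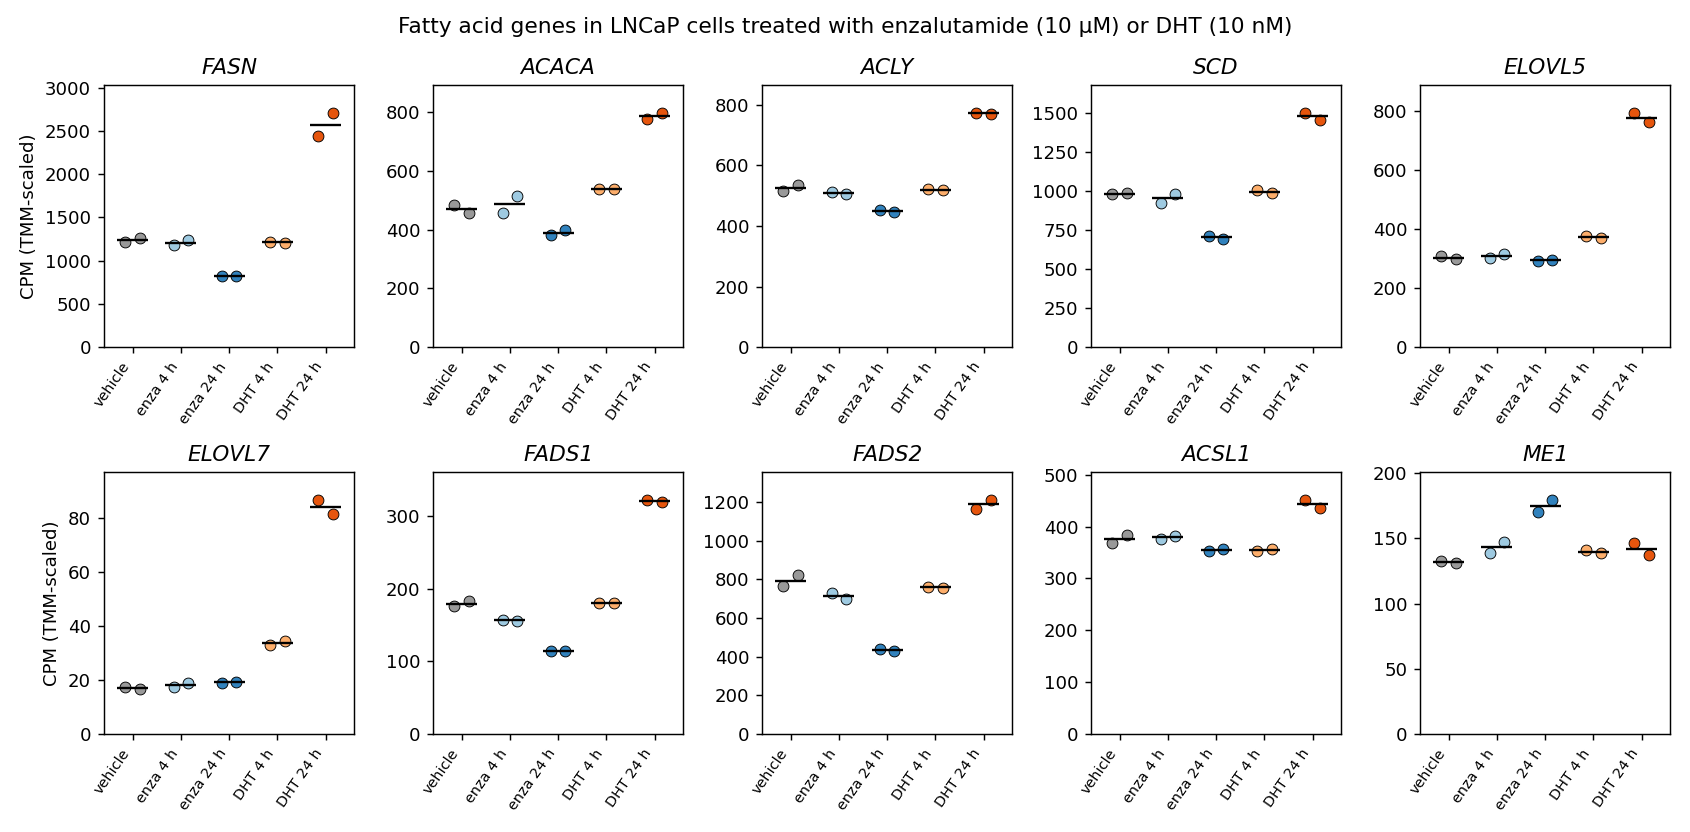
Level of each of the 10 genes in the ligand experiment, in CPM (counts scaled to library size, with TMM factors), by condition. Points are libraries (2 per condition) and lines are means; in DHT at 24 h both libraries of every gene lie above both vehicle libraries, while ME1 peaks in enzalutamide at 24 h.

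The genes that make palmitate moved in opposite directions with the 2 ligands. FASN stood at 1210 and 1262 CPM in vehicle, 820.1 and 821.9 CPM in enzalutamide at 24 h, and 2440 and 2708 CPM in DHT at 24 h. ACACA stood at 482.6 and 456.3 CPM in vehicle, 381.9 and 398.8 CPM in enzalutamide at 24 h, and 775.7 and 797.4 CPM in DHT at 24 h. ACLY stood at 515.8 and 536.4 CPM in vehicle, 451.5 and 446.2 CPM in enzalutamide at 24 h, and 773.1 and 771.2 CPM in DHT at 24 h. In all 3 genes both enzalutamide libraries lay below both vehicle libraries and both DHT libraries above them. FASN rose 2.08-fold in DHT (log2 fold change 1.06 ± 0.04 SE, edgeR adjusted p = 5.5e-10) and was at 0.664 of vehicle in enzalutamide (log2 fold change -0.59 ± 0.04 SE, edgeR adjusted p = 2.12e-07). ACACA rose 1.67-fold in DHT and was at 0.831 of vehicle in enzalutamide, and ACLY rose 1.47-fold and was at 0.853 (edgeR adjusted p = 5.79e-08, 0.00111, 7.93e-09 and 6.04e-05 in that order). Set directly against enzalutamide at 24 h, DHT gave 3.14 times the FASN, 2.01 times the ACACA and 1.72 times the ACLY.

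ME1, the cytosolic malic enzyme that makes NADPH, rose in enzalutamide and was not called in DHT at 24 h. Its level was 132.5 and 131.1 CPM in vehicle, 169.9 and 179.6 CPM in enzalutamide at 24 h, and 146.5 and 137.1 CPM in DHT at 24 h. It rose 1.33-fold in enzalutamide (log2 fold change 0.41 ± 0.04 SE, edgeR adjusted p = 1.25e-05), and both of those libraries lay above all 8 others. Its log2 fold change in DHT was 0.11 ± 0.04 SE, which did not pass (edgeR adjusted p = 0.0631), though it passed without DHT 24 h replicate 2 (0.151, edgeR adjusted p = 0.0328, within 0.0328 to 0.438 over the alternatives). ME1 was the only member lower in DHT than in enzalutamide at 24 h, at 0.812 times the level.

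Among the desaturases, SCD introduces the first double bond of oleate and palmitoleate, while FADS1 and FADS2 make the polyunsaturated chains. FADS2 was at 764.7 and 820.2 CPM in vehicle, 439.5 and 426.5 CPM in enzalutamide at 24 h, and 1166 and 1212 CPM in DHT at 24 h. FADS1 was at 176.0 and 182.6 CPM, 114.8 and 113.7 CPM, and 322.6 and 319.7 CPM in the same order, and SCD at 979.4 and 984.4 CPM, 713.7 and 694.8 CPM, and 1500 and 1456 CPM. All 3 genes were thus lower than vehicle in enzalutamide and higher in DHT, with no overlap. FADS2 had the largest fall of any member in enzalutamide, to 0.547 of vehicle (log2 fold change -0.87 ± 0.04 SE, edgeR adjusted p = 1.87e-09), followed by FADS1 at 0.638 (edgeR adjusted p = 7.67e-09) and SCD at 0.717 (edgeR adjusted p = 1.11e-07). In DHT the rises were 1.79-fold for FADS1, 1.51-fold for SCD and 1.5-fold for FADS2.

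ELOVL5 and ELOVL7, elongases that add carbon pairs to existing chains, rose in DHT at 4 and 24 h, and neither was called in 10 µM enzalutamide. ELOVL7 stood at 17.5 and 16.6 CPM in vehicle, 32.9 and 34.5 CPM in DHT at 4 h, and 86.8 and 81.6 CPM in DHT at 24 h. ELOVL5, which favours polyunsaturated chains, stood at 307.8 and 298.9 CPM, 377.9 and 370.6 CPM, and 794.7 and 762.8 CPM. In both genes the libraries of the 3 conditions did not overlap, with 4 h between vehicle and 24 h. ELOVL7 rose 4.93-fold at 24 h (log2 fold change 2.30 ± 0.06 SE) and ELOVL5 2.57-fold (log2 fold change 1.36 ± 0.03 SE), both with an edgeR adjusted p of 6.91e-12. In enzalutamide at 24 h the log2 fold change was 0.17 ± 0.06 SE for ELOVL7 (edgeR adjusted p = 0.0597) and -0.05 ± 0.03 SE for ELOVL5 (edgeR adjusted p = 0.353). With the filter of 1 CPM in 2 libraries ELOVL7 passed there (0.169, edgeR adjusted p = 0.0492, within 0.0492 to 0.29 over the alternatives). ACSL1 had the smallest rise of the 9, from 368.5 and 383.4 CPM in vehicle to 451.8 and 435.9 CPM in DHT at 24 h (1.18-fold, edgeR adjusted p = 4.29e-05), and its log2 fold change in enzalutamide at 24 h was -0.09 ± 0.03 SE (edgeR adjusted p = 0.0575, and 0.0234 to 0.254 over the alternatives).

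At 4 h few members had moved. In DHT, ELOVL7 (1.97-fold, edgeR adjusted p = 1.55e-07), ELOVL5 (1.23-fold, edgeR adjusted p = 6.03e-05) and ACACA (1.15-fold, edgeR adjusted p = 0.0285) were higher and no member was lower, against 4.66% and 2.11% of all genes. Of the 4 members with a negative log2 fold change there, 1 was below an unadjusted p of 0.05 with edgeR, and DESeq2 called none lower. The ACACA call was lost without vehicle replicate 2 (log2 fold change 0.161, edgeR adjusted p = 0.227), without DHT 4 h replicate 1 (0.198, 0.158) and without DHT 4 h replicate 2 (0.203, 0.142), with adjusted p from 1.36e-06 to 0.227 over all alternatives. FASN, by contrast, stood at 1214 and 1206 CPM in DHT at 4 h (log2 fold change -0.03 ± 0.04 SE, edgeR adjusted p = 0.757). From 4 to 24 h of DHT, 9 members rose and none fell, against 26.3% and 23.5% of all genes, and neither edgeR at an unadjusted p under 0.05 nor DESeq2 gave a lower member. The split over all genes moved from 4098 higher and 3648 lower to 3473 and 4343 with scaling by library totals only. FASN rose 2.13-fold and SCD and ACLY 1.48-fold each over that interval. By the set codes in the column names, the DHT libraries of 4 h and 24 h share no set. Set and condition can be told apart there only through vehicle, whose columns named replicate 1 carry all 3 set codes.

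In enzalutamide at 4 h, FADS1 and FADS2 were lower and no member was higher, against 6.68% and 6.94% of all genes. FADS1 stood at 157.4 and 155.1 CPM and FADS2 at 730.7 and 696.0 CPM, with log2 fold changes of -0.20 ± 0.03 SE (edgeR adjusted p = 0.00205) and -0.15 ± 0.04 SE (edgeR adjusted p = 0.0202). Of the 5 members with a positive log2 fold change, 1 was below an unadjusted p of 0.05 with edgeR, and DESeq2 called none higher. The FADS2 call did not hold without vehicle replicate 2 (-0.104, edgeR adjusted p = 0.158) or without enzalutamide 4 h replicate 2 (-0.121, 0.1), and its value was -0.077 with the set code in the column names as a term (0.271), an alternative chosen after seeing the data. Over all alternatives its adjusted p ran from 0.000116 to 0.271. The enzalutamide 4 h libraries differed from each other more than any other pair, by a mean chi-square of 9.317 per gene where counting noise alone gives 1, and without enzalutamide 4 h replicate 1 ACACA (0.137, edgeR adjusted p = 0.0261) and ME1 (0.162, edgeR adjusted p = 0.0265) were higher than vehicle. From 4 to 24 h of enzalutamide, 7 members fell and ME1 rose, against 12.9% and 11.7% of all genes. The weakest of these was ACSL1 (log2 fold change -0.10 ± 0.03 SE, edgeR adjusted p = 0.0427), which was not called without enzalutamide 4 h replicate 2 or without enzalutamide 24 h replicate 1 or 2 (-0.093, -0.097 and -0.112, edgeR adjusted p = 0.105, 0.185 and 0.125), with adjusted p from 0.0184 to 0.274 over the alternatives. Both enzalutamide 4 h libraries carry 1 set code and both 24 h libraries another. Set and condition can thus be told apart there only through libraries of other conditions that cross sets. These are vehicle, whose columns named replicate 1 carry all 3 set codes, and DHT at 24 h, with 1 replicate under each of the enzalutamide codes.

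**Figure D2:**
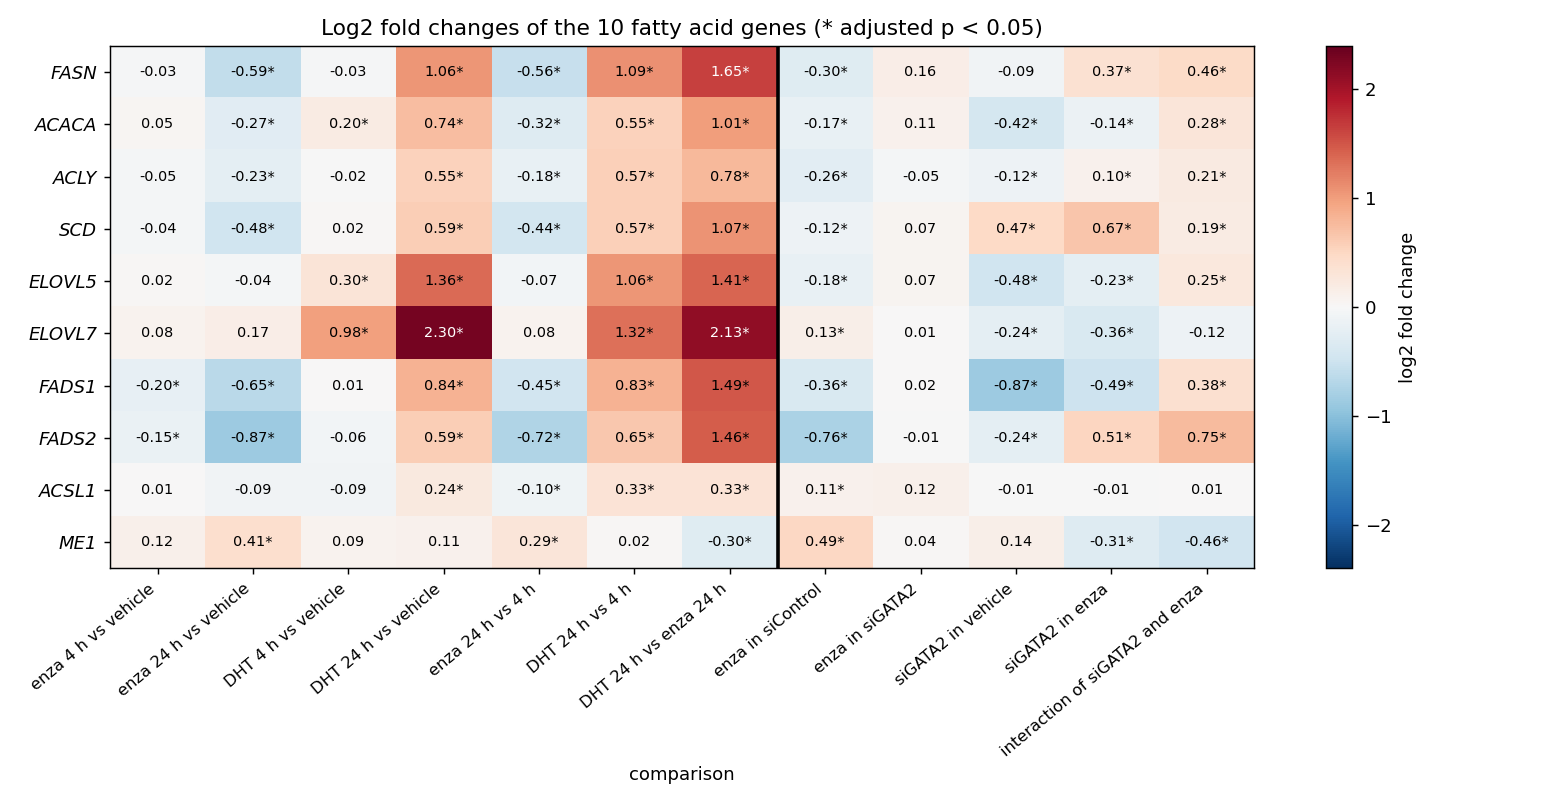
Log2 fold change of each gene (rows) in each of the 12 comparisons (columns), with the 7 ligand comparisons left of the black line and the 5 siRNA comparisons right of it. Colour gives size and direction, and an asterisk marks an adjusted p under 0.05; the DHT 24 h column is positive for all 10 genes, and the column for enzalutamide in siGATA2 cells holds no asterisk.

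The siRNA experiment asked whether the response to enzalutamide depends on GATA2. In siControl cells, 25 µM enzalutamide for 24 h lowered 7 members and raised 3, against 24.4% and 17.7% of the 20369 genes tested (limma with a variance trend on log2(RPKM + 0.1), adjusted p under 0.05), with a member median of -0.177. In siGATA2 cells no member was called in either direction, against 0.221% higher and 0.191% lower of all genes, so few genes of any kind passed there. Of the 8 members with a positive difference in siGATA2 cells, 3 were below an unadjusted p of 0.05 with limma (FASN, ACACA and ACSL1), and of the 2 with a negative one, none was. The difference between the responses, tested as an interaction, passed for 8 members, with 7 higher and 1 lower, against 15% and 10.8% of all genes. When libraries were centred on their median, the split over all genes moved from 3612 higher and 4970 lower to 4682 and 3986 in siControl cells, from 45 and 39 to 53 and 27 in siGATA2 cells, and from 3055 and 2209 to 2573 and 2725 for the interaction.

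**Figure D3:**
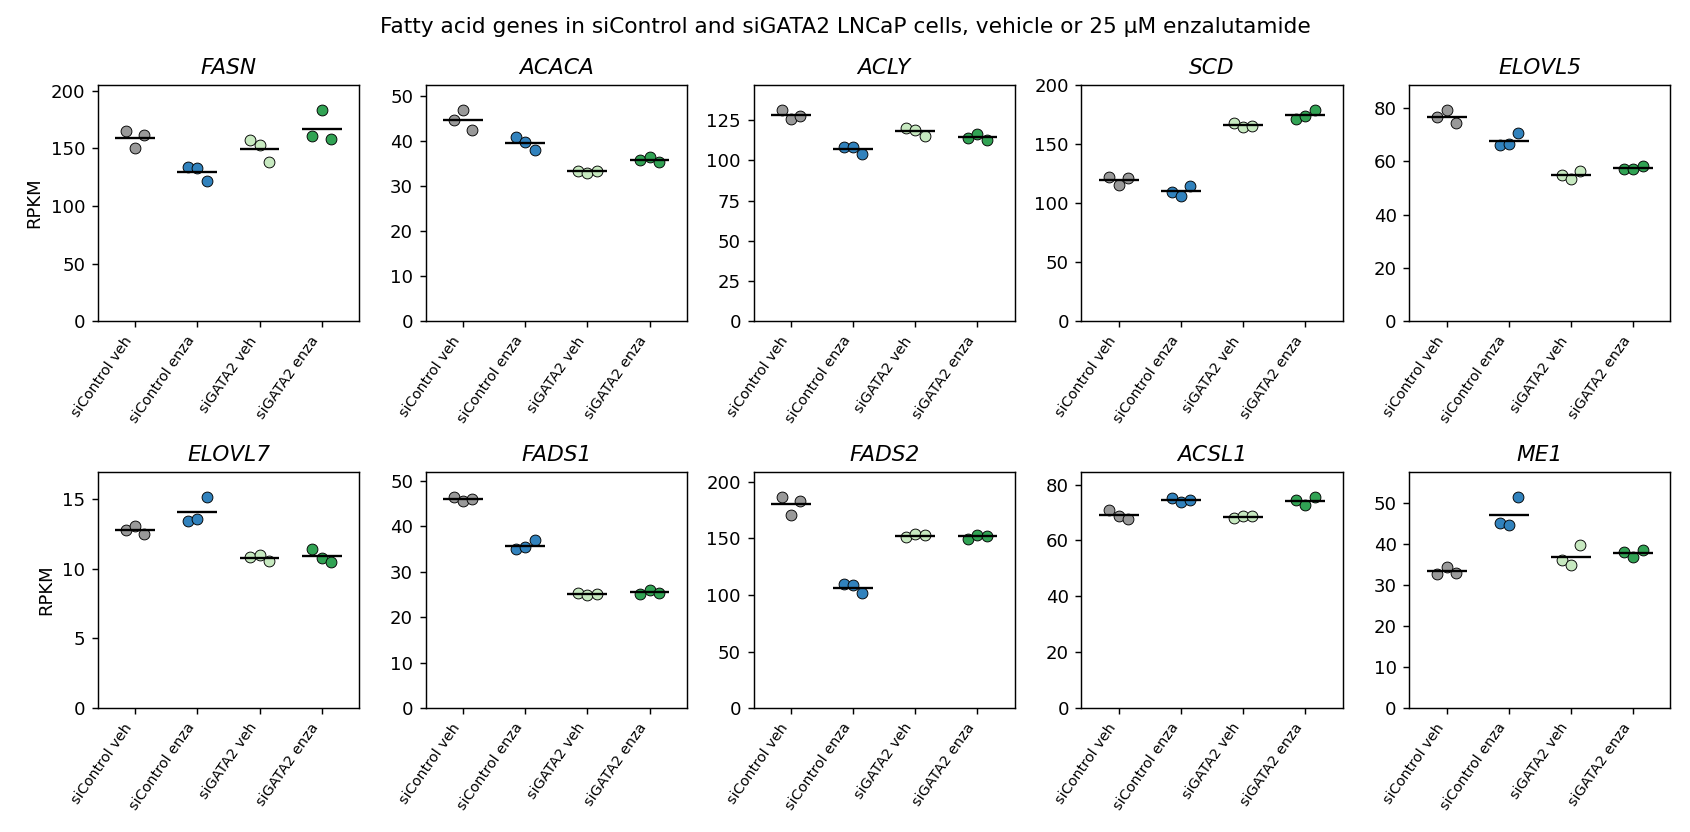
Level of each gene in the siRNA experiment, in RPKM, by condition. Points are libraries (3 per condition) and lines are means; FADS2 falls in siControl cells from 171.0 RPKM or more to 109.5 RPKM or less and stays between 149.9 and 154.0 RPKM in siGATA2 cells.

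FADS2 showed the clearest difference. Its level was 186.7, 171.0 and 183.1 RPKM in siControl vehicle and 109.5, 108.5 and 101.6 RPKM in siControl enzalutamide. In siGATA2 cells it was 151.2, 154.0 and 152.7 RPKM in vehicle and 149.9, 153.3 and 152.4 RPKM in enzalutamide. The siControl groups were far apart, whereas the siGATA2 groups overlapped. The log2 fold change was -0.76 ± 0.04 SE in siControl cells (limma adjusted p = 1.76e-07) and -0.01 ± 0.04 SE in siGATA2 cells (limma adjusted p = 0.981), and the difference between them was 0.75 ± 0.05 SE (limma adjusted p = 7.86e-06). FADS1 fell from 46.4, 45.5 and 45.9 RPKM to 34.9, 35.4 and 36.9 RPKM in siControl cells, and was 25.36, 24.93 and 25.02 RPKM in siGATA2 vehicle and 25.04, 25.87 and 25.34 RPKM in siGATA2 enzalutamide. It therefore already stood below the enzalutamide level of siControl cells once GATA2 was silenced, and its interaction was 0.38 ± 0.03 SE (limma adjusted p = 3.04e-05).

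FASN and ME1 moved in opposite directions here too. FASN stood at 164.8, 150.7 and 161.6 RPKM in siControl vehicle and 133.9, 132.9 and 121.5 RPKM in siControl enzalutamide, and at 157.2, 152.8 and 137.8 RPKM in siGATA2 vehicle and 160.6, 183.1 and 157.9 RPKM in siGATA2 enzalutamide. The log2 fold change was -0.30 ± 0.07 SE in siControl cells (limma adjusted p = 0.00565) and 0.16 ± 0.07 SE in siGATA2 cells (limma adjusted p = 0.443), with an interaction of 0.46 ± 0.10 SE (limma adjusted p = 0.00671). ME1 rose from 32.6, 34.4 and 32.9 RPKM to 45.0, 44.6 and 51.4 RPKM in siControl cells (1.41-fold, limma adjusted p = 7.84e-05). In siGATA2 cells ME1 was 36.04, 34.9 and 39.65 RPKM in vehicle and 38.1, 36.7 and 38.6 RPKM in enzalutamide, which overlapped, and its interaction was -0.46 ± 0.08 SE (limma adjusted p = 0.00291).

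ACLY, ACACA and ELOVL5 fell to 0.834, 0.886 and 0.883 of vehicle in siControl cells (limma adjusted p = 4.13e-05, 0.0028 and 0.00134), and their interactions were 0.21, 0.28 and 0.25 on the log2 scale (limma adjusted p = 0.00339, 0.00277 and 0.00324). SCD in siControl cells was at 0.920 of vehicle (limma adjusted p = 0.0167), with an interaction of 0.19 (limma adjusted p = 0.0147). The SCD response did not pass with libraries centred on their median (log2 fold change -0.068, limma adjusted p = 0.155) or without siControl vehicle replicate 1 (-0.104, 0.0633), siControl vehicle replicate 3 (-0.111, 0.0524) or siControl enzalutamide replicate 2 (-0.093, 0.0679), with adjusted p from 0.00565 to 0.155 over the alternatives. ELOVL7 was 1.10-fold higher (limma adjusted p = 0.0414, and 0.00631 to 0.128 over the alternatives), a call lost without siControl vehicle replicate 1, 2 or 3 (0.133, 0.148 and 0.116) or without siControl enzalutamide replicate 3 (0.077). ACSL1 rose 1.08-fold in siControl cells (limma adjusted p = 0.00249), and its log2 fold change in siGATA2 cells was 0.116 ± 0.02 SE (limma adjusted p = 0.0668, and 0.037 to 0.233 over the alternatives). The interaction did not pass for ELOVL7 (-0.12 ± 0.07 SE, limma adjusted p = 0.218) or ACSL1 (0.01 ± 0.03 SE, limma adjusted p = 0.924).

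**Figure D4:**
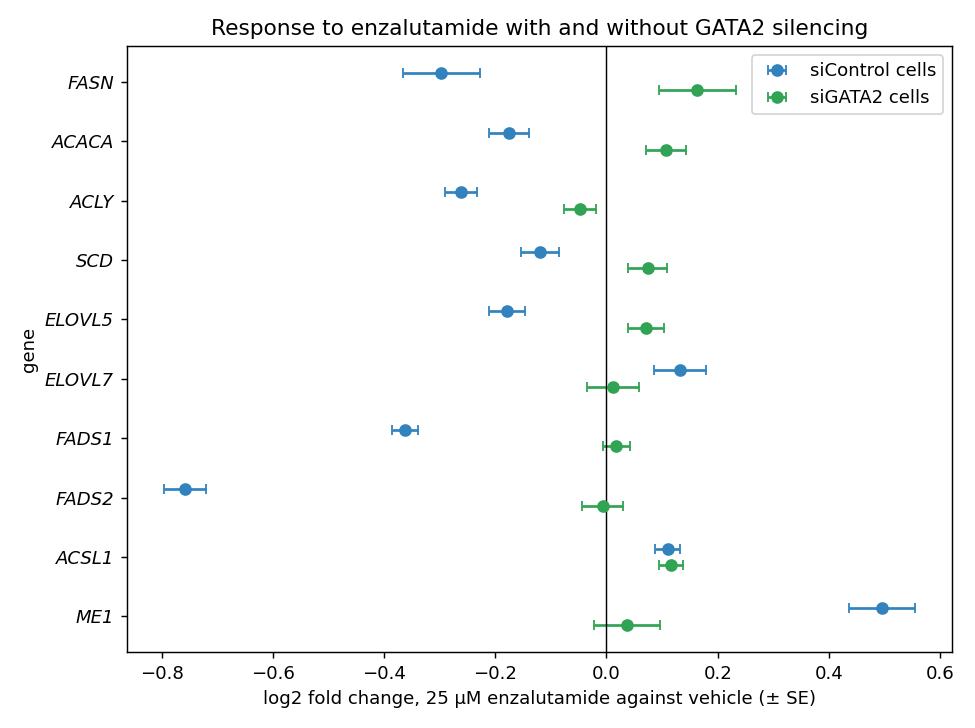
Log2 fold change with 25 µM enzalutamide against vehicle for each gene, in siControl cells (blue) and siGATA2 cells (green), with bars of ± 1 SE from limma. In siControl cells the values run from -0.76 (FADS2) to 0.49 (ME1), and in siGATA2 cells from -0.05 (ACLY) to 0.16 (FASN).

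The antagonist was given at 10 µM in the ligand experiment and at 25 µM in the siRNA experiment. The experiments also differed in transfection, unit and test, so the responses at 24 h are set side by side only. FADS2 was at 0.547 and 0.591 of vehicle, FADS1 at 0.638 and 0.778, FASN at 0.664 and 0.814 and SCD at 0.717 and 0.920, respectively, and ME1 was at 1.33 and 1.41. ELOVL5, which was not called at 10 µM, was at 0.970 and 0.883. ACSL1 changed direction, at 0.942 with 10 µM, where it was not called, and 1.08 with 25 µM, where it was.

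Silencing GATA2 by itself also moved these genes. In vehicle, 6 members were lower and SCD was higher, against 31.4% and 24.2% of all genes, and the split over all genes moved from 4928 higher and 6394 lower to 6196 and 5368 when libraries were centred on their median. FADS1 was at 0.548 of siControl (log2 fold change -0.87 ± 0.02 SE, limma adjusted p = 6.92e-10), ELOVL5 at 0.715 (limma adjusted p = 4.45e-07), ACACA at 0.745 (limma adjusted p = 2.59e-06), ELOVL7 at 0.845 (limma adjusted p = 0.00103), FADS2 at 0.847 (limma adjusted p = 0.000263) and ACLY at 0.922 (limma adjusted p = 0.00492). ACLY did not pass with libraries centred on their median (-0.043, limma adjusted p = 0.242, within a range of 0.00425 to 0.242 over the alternatives). SCD went the other way, from 122.5, 115.6 and 121.3 RPKM to 168.1, 165.0 and 165.3 RPKM (1.39-fold, limma adjusted p = 7.62e-07). FASN (log2 fold change -0.09 ± 0.07 SE, limma adjusted p = 0.294) and ACSL1 (-0.01 ± 0.02 SE, limma adjusted p = 0.699) did not pass, and ME1 was at 0.14 ± 0.06 SE (limma adjusted p = 0.0592, and 0.0076 to 0.211 over the alternatives). ME1 passed without siGATA2 vehicle replicate 2 (0.184, limma adjusted p = 0.0359).

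Under enzalutamide, siGATA2 cells had 4 members higher and 5 lower than siControl cells, against 26.3% and 28.1% of all genes, and the split over all genes moved from 5367 higher and 5729 lower to 6033 and 5190 with libraries centred on their median. SCD (1.59-fold), FADS2 (1.43-fold), FASN (1.29-fold) and ACLY (1.07-fold) were higher, and FADS1 (0.712), ELOVL7 (0.778), ME1 (0.806), ELOVL5 (0.850) and ACACA (0.906 of siControl) were lower. ACLY lost its call without siControl enzalutamide replicate 3 (0.076, limma adjusted p = 0.0551) or siGATA2 enzalutamide replicate 2 (0.084, limma adjusted p = 0.0542), with adjusted p from 0.00227 to 0.0551 over the alternatives. The siRNA comparisons in vehicle and in enzalutamide share libraries with the responses to enzalutamide above.

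Other genes of lipid metabolism were read from lists chosen with earlier results of these data known. The counts of each list stand against 26.9% of all genes higher and 23.2% lower in DHT at 24 h, and 16.4% higher and 17% lower in enzalutamide at 24 h, and nothing is read from them as particular to a list. Of 12 lipogenic regulators tested in the ligand experiment, 6 rose and 2 fell in DHT at 24 h, and 1 rose and 4 fell in enzalutamide at 24 h. INSIG1, which retains the SREBPs in the endoplasmic reticulum and is itself an SREBP target, had log2 fold changes of 0.98 in DHT and -1.04 in enzalutamide, SREBF2 of 0.42 and -0.31, and SREBF1 of 0.21 and -0.35, and all 6 passed (edgeR). SREBF1 stood at 352.2 and 397.5 CPM in vehicle, 296.0 and 291.0 CPM in enzalutamide at 24 h, and 417.6 and 446.8 CPM in DHT at 24 h. After GATA2 silencing in vehicle, 6 of 13 regulators were higher and 3 lower, against 24.2% and 31.4% of all genes, with SREBF2 at -0.88 and SREBF1 at -0.01 on the log2 scale, the latter not called (limma). SREBF2 fell from 60.7, 55.7 and 60.2 RPKM to 33.03, 32.39 and 30.69 RPKM. In siControl cells given enzalutamide, 4 regulators rose and 2 fell, against 17.7% and 24.4% of all genes, and neither SREBF1 (-0.08) nor SREBF2 (0.07) passed.

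Partners of the synthesis pathway rose in 4 of 8 cases in DHT at 24 h with none lower, led by MCAT (0.41), ACSS2 (0.35) and SLC25A1 (0.31 on the log2 scale), and 2 of 8 fell in enzalutamide. SLC25A1 is the carrier that exports citrate from mitochondria and ACSS2 makes acetyl-CoA from acetate. Of 9 relatives in the elongation cycle, 5 rose and 1 fell in DHT, including ELOVL1 (0.57) and ELOVL6 (0.45), and ELOVL6 was at -0.45 in enzalutamide, where 1 rose and 2 fell. Of 6 desaturase relatives and electron donors, 4 rose and 1 fell in DHT, with the electron donor cytochrome b5, CYB5A, at 0.50 and SCD5, a relative of SCD, at -0.87, and 2 rose and 2 fell in enzalutamide. Among 5 acyl-CoA synthetase relatives, ACSL3 rose in DHT by 1.21 and ACSL4 and ACSL6 fell by 0.82 and 0.47 on the log2 scale, and in enzalutamide ACSL3 (-0.21) was the 1 call. Of 5 other NADPH suppliers, 3 rose and 1 fell in DHT, and 1 rose and 1 fell in enzalutamide. IDH1, the cytosolic isocitrate dehydrogenase, rose with both ligands (0.72 in DHT and 0.58 in enzalutamide), and in siControl cells its level went from 95.4, 95.8 and 95.7 RPKM to 198.8, 201.0 and 212.2 RPKM with enzalutamide. In siGATA2 cells IDH1 was 71.7, 77.6 and 74.9 RPKM in vehicle and 81.6, 83.4 and 84.2 RPKM in enzalutamide, with an interaction of -0.94 (limma).

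Of 10 genes of triglyceride and lipid storage tested, 3 rose and 3 fell in DHT at 24 h, with MGLL, a monoglyceride lipase, at 0.73 and LPIN1, a phosphatidate phosphatase, at 0.64 on the log2 scale, and 1 rose and 3 fell in enzalutamide, with LPIN1 at -0.44. Genes of fatty acid oxidation showed no single direction in the ligands, with 4 of 17 higher and 5 lower in DHT and 3 higher and 3 lower in enzalutamide at 24 h. CPT1A, which admits long chains to mitochondria, was at 0.04 and -0.03 and passed in neither. After GATA2 silencing, however, 12 of the 17 were higher and 3 lower in vehicle, against 24.2% and 31.4% of all genes, with HADHB, of the trifunctional protein, at 0.69, the carnitine carrier SLC25A20 at 0.64 and CPT1A at 0.47, and a list median of 0.251 against -0.027 for all genes tested. Under enzalutamide 12 were higher and 2 lower than in siControl cells, against 26.3% and 28.1% of all genes.

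Across the 12 siRNA libraries, which are 4 conditions of 3 replicates, the 5 genes of 11998 compared whose log2 RPKM was most like that of FASN were SREBF1 (Pearson r = 0.912), PAAF1 (0.901), RHOBTB2 (0.878), CCDC142 (0.873) and WDR59 (0.864). The members themselves ranged from FADS2 (0.782) and ACLY (0.667) to ELOVL7 (-0.623) and ME1 (-0.814). Across the 10 ligand libraries, which are 5 conditions of 2 replicates, their r with FASN ran from 0.859 (ELOVL7) to 0.989 (ACLY), apart from ME1 at -0.512. These correlations rest on differences between a few conditions and are given as a description.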

How the data were processed

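LNCaP libraries were poly(A)-selected and strand-directional. Per the labels and the study's methods, reads were aligned to hg19 with TopHat2 2.0 and quantified in Partek. The authors deposited estimated counts for the ligand experiment and RPKM values for the siRNA experiment, whose files are named as read counts. The labels list 4 vehicle replicates, but their column names carry replicate 1 in 3 sets and replicate 2 in 1. The 3 columns of replicate 1 differed by a mean chi-square of 1.508 to 1.54 per gene, against 3.422 to 3.591 with replicate 2, and were summed and counted as 1 sample. No column was left unused.

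Estimated counts were rounded and tested with edgeR 4.0.16 (quasi-likelihood, TMM, default filter, all 5 conditions in 1 model). For the siRNA experiment, limma 3.58.1 with a variance trend was fitted to log2(RPKM + 0.1) across all 4 conditions, keeping genes above 0 in at least 3 libraries, so fold changes understate those of low genes. DESeq2 1.42.0 was an alternative. Benjamini-Hochberg adjustment ran over all genes tested in a comparison, and an adjusted p under 0.05 was called. CPM values were computed with TMM factors. Tested on simulated data for enzalutamide at 24 h (15408 genes), edgeR recovered 86% of 2-fold and 72.73% of 1.5-fold changes. For enzalutamide in siControl cells (20369 genes), limma recovered 99% and 95%. Those changes were placed only in genes with a mean of at least 1 RPKM, so the rates of the 2 tests are not for like genes. Same-numbered siRNA libraries deviated together only between siControl and siGATA2 under enzalutamide (r = 0.113, 0.241 and 0.148). The main tests used no pairing in any comparison, and a replicate block was run as an alternative.

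The 10 genes and the gene lists were chosen with earlier results of these data known. All 10 are named; from each list, called genes with the largest changes (up to 3 per comparison) and preset key genes are named. Some genes of the lists are not reported here. Likeness to FASN was Pearson's r on log2 values of genes with a mean of at least 1 RPKM. Gene coordinates of the study's build were not used here; promoter windows are those of RefSeq on GRCh38.p14. Analyses ran in R 4.3.3.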

Additional observations from a re-analysis of the deposited data

Results flagged for a closer look

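The response to enzalutamide differed between siControl and siGATA2 cells in 8 of the 10 genes by the interaction term (limma, adjusted p under 0.05). Of these, 7 were higher and 1 lower, against 15% and 10.8% of all genes. Over all genes, enzalutamide gave 17.7% higher and 24.4% lower in siControl cells but 0.221% and 0.191% in siGATA2 cells, so the loss of calls was not particular to these 10. Each gene is listed with its difference on the log2 scale, as the response in siGATA2 cells minus that in siControl cells. The difference was 0.751 for FADS2, 0.459 for FASN, 0.38 for FADS1, 0.282 for ACACA, 0.25 for ELOVL5, 0.214 for ACLY and 0.194 for SCD, and -0.457 for ME1. All 7 genes with a positive difference had been lowered in siControl cells, and ME1 had been raised. The difference subtracts the siControl response, and no member was called in siGATA2 cells. These opposite directions therefore follow from the subtraction and are not a further result.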

How the results depend on the processing

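Across 1730 values of single genes under alternative settings, 30 calls were lost, 16 were gained, 1 was reversed and 30 uncalled values changed sign. The reversal was ACSL1 after GATA2 silencing in vehicle, at 0.062 with libraries centred on their median. Counts of called genes moved by over 1.5 times in 5 cases. For enzalutamide at 4 h, the higher count ran from 0 to 2 and the lower count from 1 to 2 on leaving out 1 library, and the lower count was 1 with only the 2 conditions compared and 1 with the set code as a term, added after seeing the data. With a filter of 1 CPM in 2 libraries, 2 genes were higher in enzalutamide at 24 h. In siGATA2 cells given enzalutamide, 1 gene was higher with no filter and 1 with centring. After GATA2 silencing in vehicle, the higher count was 2 with the filter of a mean of 1 RPKM, 3 with centring, 2 with the replicate block, and 1 to 2 on leaving out 1 library. The cause of these moves was not tested. The replicate block lost ACSL1 from 4 to 24 h of enzalutamide (-0.099, adjusted p = 0.0651) and ELOVL7 in siControl cells (0.132, adjusted p = 0.0759) and gained ME1 after silencing (0.145, adjusted p = 0.0337), and changed no other call of the 10 genes. It left 4 higher and 5 lower after silencing under enzalutamide, where same-numbered libraries deviated together. Elsewhere the samples share only a number, with r from -0.103 to 0.063 in the ligand experiment and -0.342 to 0.28 in the siRNA experiment. Where leaving out a library left 1 in a ligand condition, that library was assumed to vary like the others. With 2 or 3 replicates and edgeR or limma pooling their spread, differences near 1.1-fold lay at the edge of what could be called, and the depth of the siRNA libraries is known only relative to each other.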

Other observations

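ELOVL2, an elongase of long polyunsaturated chains, was barely expressed but moved in DHT and in the siRNA experiment. It was at 0.380 and 0.229 CPM in vehicle and 1.45 and 1.38 CPM in DHT at 24 h (log2 fold change 2.14, edgeR). In the siRNA experiment ELOVL2 was at 1.80, 1.69 and 1.47 RPKM in siControl vehicle, 0.693, 0.704 and 0.740 RPKM in siControl enzalutamide, 0.458, 0.436 and 0.408 RPKM in siGATA2 vehicle, and 0.435, 0.456 and 0.405 RPKM in siGATA2 enzalutamide. The siControl groups did not overlap, while the siGATA2 groups did, and the interaction was 1.10 (limma).

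ACSL3, the acyl-CoA synthetase of lipid droplets, was at 34.6, 35.7 and 34.2 RPKM in siControl vehicle and 49.5, 51.0 and 50.4 RPKM in siGATA2 vehicle (log2 fold change 0.53, limma), so it was higher after GATA2 silencing as well as in DHT. It was at 33.6, 33.1 and 34.5 RPKM in siControl enzalutamide, where it was not called. MID1IP1, which promotes the assembly of acetyl-CoA carboxylase into its active polymer, rose by 0.63 on the log2 scale with enzalutamide in siControl cells, with an interaction of -0.52 (limma).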
